A study of Homo sapiens with 4 samples.

Results

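The transcripts described here were long noncoding RNAs that the deposited tables listed under a LINC number, the systematic name for a long intergenic noncoding RNA gene without a functional name. Of the 26506 gene symbols in the tables, 903 were of this form, and the 165 with at least 1 FPKM (fragments per kilobase of transcript, normalised to the mapped reads of a library) in any of the 4 libraries were taken. The members were therefore selected on their measured FPKM, and these levels are given as a description. Each library came from an ovarian cancer cell line, HeyC2 or SKOV3. The cells had been transfected with 3 µg of a TET1 expression plasmid (pCMV6/TET1, TET1 libraries) or of the empty plasmid (control libraries), and all 4 cultures were kept in 400 µg/ml Geneticin. The labels call the control cells Wild-type and the others TET1 overexpressed. The added TET1 was driven by the CMV promoter of the plasmid rather than by its own, and whether the selected cells were 1 clone or a pool is not given in the sources used here. In the tables each TET1 library had been scaled to the GAPDH value of its control, and values are given here with that scaling undone. There was 1 library for each of the 4 groups, so no difference has a replicate check, and no test was made.

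Long intergenic noncoding RNAs are transcribed by RNA polymerase II, and many are spliced and polyadenylated like messenger RNAs, but they carry no long reading frame. They are known for low levels and for expression restricted to particular cell types. Some act as scaffolds or decoys for proteins, some act on a neighbouring gene, and several that were first named as noncoding were later found to be translated into a microprotein. TET1 oxidises methylated cytosine at CpG dinucleotides and is known to bind promoters rich in CpG, so the CpG content of the promoters is given with the transcripts.

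The promoters of 5 members are printed because they span that range and belong to transcripts that the results turn on. They are RefSeq windows on GRCh38.p14, 300 bases long, from 250 bases before the transcript start to 50 bases after it, read 5′ to 3′ on the strand of the gene. Capitals mark each CpG.
LINC00657 (NORAD), chr20:36050911-36051210, minus strand: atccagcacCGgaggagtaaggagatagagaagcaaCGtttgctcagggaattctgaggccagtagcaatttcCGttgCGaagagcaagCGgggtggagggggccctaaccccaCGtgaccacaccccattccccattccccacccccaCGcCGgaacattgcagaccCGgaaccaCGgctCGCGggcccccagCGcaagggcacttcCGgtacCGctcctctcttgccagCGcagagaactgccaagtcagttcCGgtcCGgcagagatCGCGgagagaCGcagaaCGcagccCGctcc
LINC00493 (SMIM26), chr20:18567182-18567481, plus strand: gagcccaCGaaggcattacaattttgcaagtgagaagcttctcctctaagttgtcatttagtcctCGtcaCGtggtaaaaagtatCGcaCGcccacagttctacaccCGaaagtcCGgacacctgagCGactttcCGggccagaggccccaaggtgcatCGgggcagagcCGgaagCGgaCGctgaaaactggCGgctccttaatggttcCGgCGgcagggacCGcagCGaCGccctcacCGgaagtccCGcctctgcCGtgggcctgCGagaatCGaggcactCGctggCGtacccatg
LINC01358, chr1:59020226-59020525, plus strand: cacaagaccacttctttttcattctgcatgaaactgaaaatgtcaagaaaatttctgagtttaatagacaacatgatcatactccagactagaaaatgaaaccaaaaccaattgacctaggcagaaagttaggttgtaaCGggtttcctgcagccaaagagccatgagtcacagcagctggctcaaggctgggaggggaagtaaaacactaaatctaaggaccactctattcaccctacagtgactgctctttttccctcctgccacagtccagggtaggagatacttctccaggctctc
LINC01021 (PURPL), chr5:27472042-27472341, plus strand: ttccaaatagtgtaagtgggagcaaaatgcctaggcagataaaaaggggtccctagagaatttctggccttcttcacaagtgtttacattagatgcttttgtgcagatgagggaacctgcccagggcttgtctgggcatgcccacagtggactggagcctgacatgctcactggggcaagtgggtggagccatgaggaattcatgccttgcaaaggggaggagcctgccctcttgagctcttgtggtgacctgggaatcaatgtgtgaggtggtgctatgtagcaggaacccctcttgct
LINC01594, chr2:108217792-108218091, minus strand: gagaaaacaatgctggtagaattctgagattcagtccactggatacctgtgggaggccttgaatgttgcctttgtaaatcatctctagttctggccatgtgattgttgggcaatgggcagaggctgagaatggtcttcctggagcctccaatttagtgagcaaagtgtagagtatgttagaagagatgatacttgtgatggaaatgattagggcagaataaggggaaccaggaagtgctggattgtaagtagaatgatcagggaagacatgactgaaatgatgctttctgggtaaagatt
The windows of LINC00657 and LINC00493, which were above 20 FPKM in every library, hold 23 and 26 CpG. The RefSeq start need not be that of the transcript the authors counted, and LINC00942, on the minus strand in GENCODE and the plus strand in RefSeq, is not shown. LINC01358 holds 1, LINC01021 holds 0 and LINC01594 holds 0, and each of these 3 was listed at 0 in at least 1 library. In GENCODE on hg19, LINC01358 starts at chr1:59399315 and LINC01021 at chr5:27217821. Positions were not converted between the builds. The windows of LINC01358 and LINC01021 may therefore lie inside the genes, away from the start of the transcripts counted.

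RefSeq gave a window for 120 of the 165 members, and 109 of them had a single window. These 109 held a median of 11 CpG, against 27 for the 7564 single windows of all genes tested and 12 for all 22114 single windows of the table. Among the 35 members at 1 FPKM or more in all 4 libraries, 71.4% had at least 15 CpG and 17.1% had at most 5. Among the 34 members that reached 1 FPKM in 1 library only, 23.5% had at least 15 CpG and 52.9% had at most 5. LINC symbols that stayed below 1 FPKM everywhere were lower again, with 15.2% of 435 windows at 15 CpG or more. Members that were higher in the TET1 library had a median of 10 CpG in HeyC2 (22 members) and 9.5 in SKOV3 (36). Those lower had 8.5 (10 members) and 8 (14). Members past the threshold in neither direction had 14.5 (66 members) and 19 (50), leaving out those listed at 0 in both libraries of the line. These medians were not counted over all genes tested. The share of CpG-rich windows also differed with level, as given above, and the part of level in these medians was not tested. The 20 members at 0 in both libraries of 1 cell line had a median of 6.

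**Figure D1:**
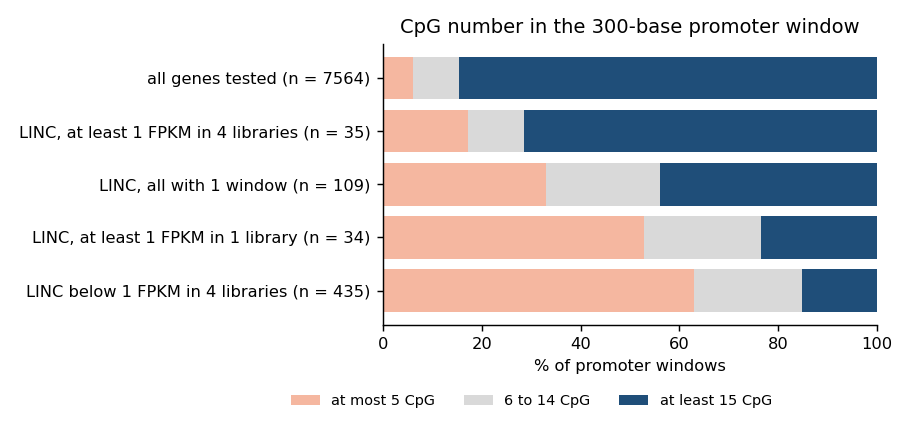
Share of 300-base promoter windows (x axis, %) with at most 5, 6 to 14 or at least 15 CpG, for genes with 1 window in the RefSeq table. The share with at least 15 CpG is 84.7% for all genes tested, 71.4% for LINC transcripts at 1 FPKM or more in all 4 libraries, 23.5% for those in 1 library and 15.2% for LINC symbols below 1 FPKM.

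The libraries differed little in estimated depth, from 6620000 to 7280000 fragments, so that 1 FPKM stands for about 10 fragments at the median length of a member. The TET1 transcript was at 0.20 FPKM in the HeyC2 control and 0.519 in its TET1 library, and at 0.43 and 1.80 in SKOV3. TET1 was thus listed higher in the library labelled so in both cell lines. Both HeyC2 values were below the limit of 1 FPKM, however, and only the SKOV3 TET1 library was above it. Of 11 ovarian carcinoma markers, 9 reached 1 FPKM in some library, and their summed level ran from 1226 to 2679 FPKM. In HeyC2, however, EPCAM, KRT19, CLDN4 and MUC1 were at 1.59 FPKM or less in both libraries. The 4 mesenchymal markers listed summed to 13102 and 5613 FPKM in HeyC2 control and TET1 and to 1286 and 917 in SKOV3. PAX8 was at 74.6 FPKM or more in all 4, whereas WT1 and MUC16 were at or near 0 throughout and CDH1 was listed at 0 in both HeyC2 libraries. The SKOV3 TET1 library stood apart from its control in 2 of 4 keratins listed, with KRT7 at 22.0 against 1537 FPKM and KRT19 at 0.461 against 255, while KRT8 was at 775 against 560 and KRT18 at 255 against 193. In HeyC2 TET1, KRT7 was at 1125 FPKM against 290 in the control, KRT8 at 386 against 476 and KRT18 at 379 against 378. Erythroid markers were at 0 in all libraries, while 1 of 5 leukocyte markers (CD68) and 1 of 3 endothelial markers (CDH5, 18.9 and 94.6 FPKM in HeyC2 control and TET1) were above 1 FPKM. Of 4 fibroblast markers, COL1A1 and COL1A2 passed 1 FPKM, and their list summed to between 0.6 and 30.5 FPKM, highest in SKOV3 TET1. The part of these differences in the values of the LINC transcripts was not tested.

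Most members were scarce. The highest value over the libraries was between 1 and 2 FPKM for 51 members, between 2 and 5 for 52, between 5 and 10 for 28 and at least 10 for 34. Only 51 members were at 1 FPKM or more in all 4 libraries, and 47 reached it in a single library. The number at 1 FPKM or more was 83 and 104 in HeyC2 control and TET1 and 96 and 121 in SKOV3 control and TET1, highest in the last. The summed level of all members was 895, 957, 858 and 1044 FPKM in the same order, 0.181% to 0.229% of the total of a library. The members just inside the limit were LINC01232 at 1.003 FPKM and LINC00629 and LINC01118 at 1.011, and those just outside were LINC01607 at 0.989, LINC00623 at 0.981 and LINC01559 at 0.98.

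A pair of transcripts made up much of this sum. LINC00657, now named NORAD, which binds PUMILIO proteins in the cytoplasm, was at 185 and 159.5 FPKM in HeyC2 (control first, then TET1, here and below) and at 104 and 103 in SKOV3. It was the highest member in all 4 libraries and close to level within each cell line, and 32.1% of its bases are shared with LINC02211 and other loci. LINC00152, now CYTOR, a cytoskeleton-linked RNA that is often raised in carcinomas, was at 135 and 92.5 FPKM in HeyC2 and 55.2 and 33.5 in SKOV3. It was lower in TET1 than in control in both cell lines, past 1.5-fold in SKOV3 with a relative log2 value of -0.90. In HeyC2 the LINC00152 value turns to 1.14 with the deposited values, not centred. All of its aligned bases are shared with a near-identical copy, MIR4435-2HG, so that reads cannot be assigned to 1 of the 2 genes with certainty. NORAD and CYTOR together held 35.7% and 26.3% of the summed member level in HeyC2 and 18.5% and 13.1% in SKOV3.

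Several other members were above 10 FPKM in every library. LINC00506 was at 31.0, 49.1, 31.0 and 51.9 FPKM, and LINC00504 at 24.0, 38.4, 25.7 and 40.8 FPKM, in the order used above. Both were higher in the TET1 library of each cell line and nearly equal between the lines. Relative to the median gene LINC00506 and LINC00504 were at 0.61 and 0.62 on the log2 scale in HeyC2 and at 0.53 and 0.45 in SKOV3, so that neither passed 1.5-fold in SKOV3. They lie on different chromosomes, LINC00506 at chr3:87138279-87207513 and LINC00504 at chr4:14472089-14889793 (hg19, as for every gene position below), and shared no stretch with each other in the search that was made. LINC00504 shares 22% of its bases with ABCC9 and 3 other loci. LINC01578, now CHASERR, which lies beside CHD2 and limits its expression, was at 18.4, 22.4, 30.6 and 31.7 FPKM, and LINC01623 at 22.5, 26.8, 13.9 and 12.002. LINC01623 was past 1.5-fold higher in HeyC2 than in SKOV3 in both conditions, with relative log2 values of 0.91 and 1.48.

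**Figure D2:**
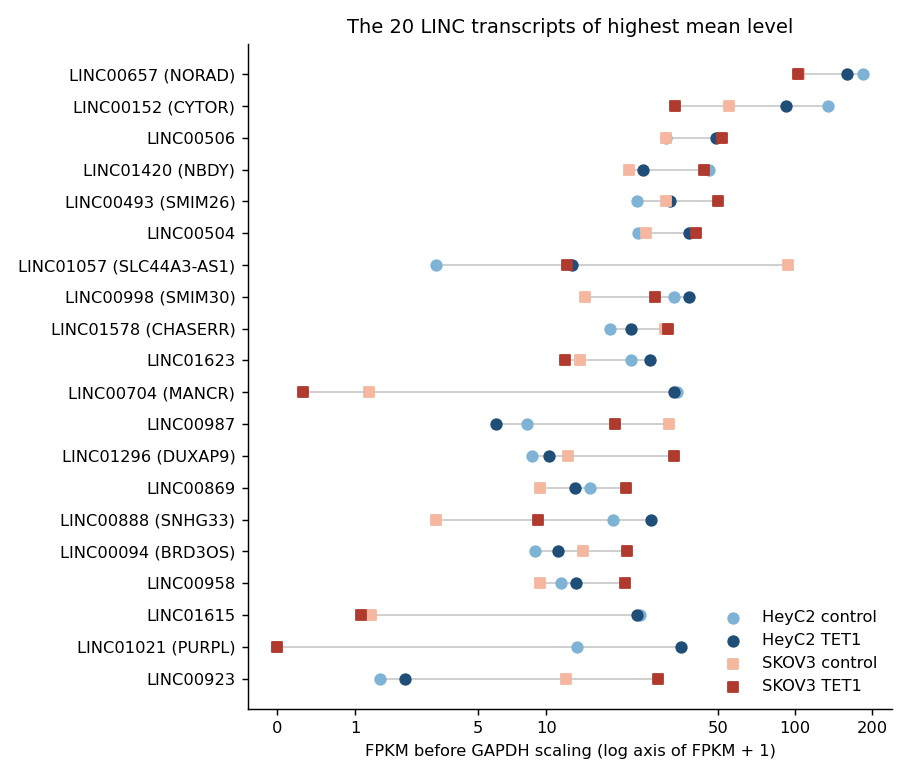
FPKM before the GAPDH scaling (log axis of FPKM + 1) of the 20 LINC transcripts with the highest mean over the 4 libraries, with current names in brackets. Points are single libraries, circles HeyC2 and squares SKOV3. NORAD spans 103 to 185 FPKM, LINC01057 3.13 to 93.7, LINC00704 0.253 to 34.4 and LINC01021 0 to 35.5.

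Between the TET1 and the control library of a cell line, members were compared by log2 of FPKM + 1, relative to the median difference over the 14387 genes that passed the same limit of 1 FPKM. A difference was counted from 1.5-fold. The level limit admits a transcript that is high in 1 library and absent from the others, which then has to differ, so the shares are a description beside genes admitted in the same way. In HeyC2, 39 members (23.6%) were higher in TET1 and 11 (6.67%) lower, where 12.5% of all genes tested were higher and 7.81% lower. In these bulk samples fewer cells with a transcript and less of it per cell cannot be told apart. The median member differed from the median gene by 0.05 on the log2 scale. In SKOV3, 55 members (33.3%) were higher and 22 (13.3%) lower, against 20.6% and 17.7% of all genes tested, and the median member lay 0.24 above the median gene. With the FPKM as deposited, scaled to GAPDH and not centred, the numbers were 122 higher and 4 lower in HeyC2 and 92 and 12 in SKOV3, where 86.8% and 48.9% of all genes tested were higher and 0.772% and 4.78% lower. On that scale the share of members higher in HeyC2 lay below that of all genes. Scarce genes of any kind differed more often in the upward direction in SKOV3. Among genes whose highest value was between 1 and 5 FPKM, 29.3% were higher in SKOV3 TET1 and 10.2% lower, and the 103 members of that range gave 32.0% and 11.7%. In the same range of HeyC2 the shares were 13.4% and 7.58% over all genes and 25.2% and 7.77% over the members. For the 62 members that reached 5 FPKM, 21.0% were higher and 4.84% lower in HeyC2 TET1 (12.2% and 7.87% of all genes at that level), and 35.5% higher and 16.1% lower in SKOV3 TET1 (18% and 20%). Many of these differences rest on few fragments. Of the HeyC2 members higher in TET1, 35 had an estimated fragment number, 9 of them fewer than 10 in the higher library, and 24 differed by more than 2 SD of the counting error of the log ratio. In SKOV3, 52 had an estimate, 9 were under 10 fragments and 42 passed 2 SD. Spread between cultures is not part of that error.

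Other noncoding groups did not all follow the same course. All genes tested gave 12.5% higher and 7.81% lower in HeyC2 TET1, and 20.6% and 17.7% in SKOV3 TET1. Of 359 antisense symbols tested, 69 (19.2%) were higher and 30 (8.36%) lower in HeyC2 TET1. In SKOV3 TET1, 97 (27.0%) were higher and 46 (12.8%) lower. Antisense symbols were thus, like the LINC transcripts, higher more often than all genes in both lines. Of 18 host genes of small nucleolar RNAs, 7 (38.9%) were higher and 0 lower in HeyC2 TET1. In SKOV3 TET1, 0 were higher and 9 (50%) lower. Of 16 well-studied long noncoding RNAs without a LINC symbol, 5 (31.25%) were higher and 0 lower in HeyC2 TET1. In SKOV3 TET1, 2 (12.5%) were higher and 3 (18.75%) lower. That list held UCA1, known from bladder carcinoma, at 1.77 and 44.2 FPKM in HeyC2 control and TET1 but at 93.2 and 2.87 in SKOV3. It also held the nuclear RNAs NEAT1, at 55.1 and 381 FPKM in HeyC2 and 155 and 123 in SKOV3, and MALAT1, at 16.7 and 76.4 and at 66.0 and 86.3. As 1 library stands for each group, these counts describe the libraries.

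**Figure D3:**
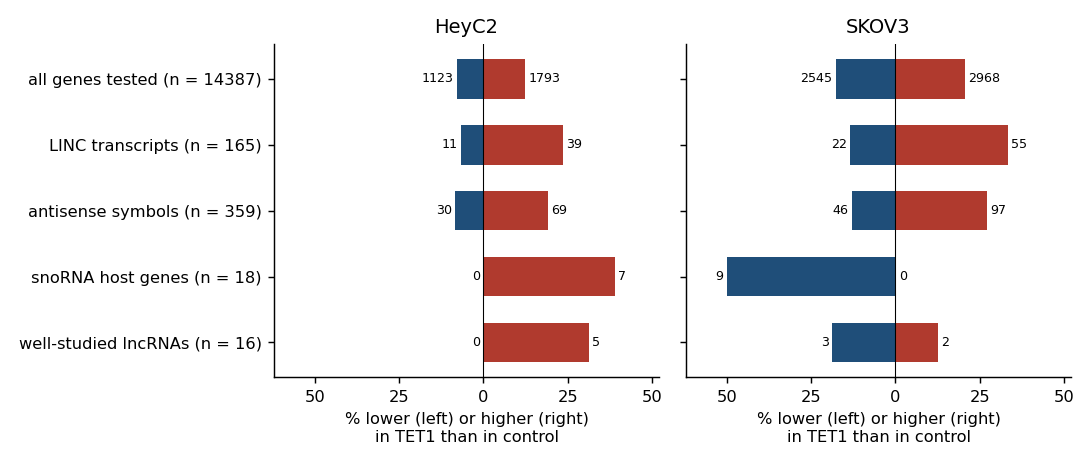
Share of each gene group (x axis, %) at least 1.5-fold lower (left, blue) or higher (right, red) in the TET1 than in the control library relative to the median gene, with the number of genes beside each bar. LINC transcripts reach 23.6% higher in HeyC2 and 33.3% in SKOV3, beside 12.5% and 20.6% of all genes tested.

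In HeyC2 the largest values above control were those of LINC01358, LINC01057, LINC00115, LINC01537 and LINC01021. LINC01358 (chr1:59399315-59706227) was at 0.43 FPKM in the control, about 8 fragments, and 4.42 in TET1, about 71, a ratio of 10.3. LINC01537 was at 1.25 and 5.05 FPKM, and in SKOV3 at 0.12 and 0. LINC00115 was at 0.94 and 4.89 FPKM in HeyC2, but its exons overlap those of LINC01128 and 53.7% of its bases are shared with other loci. LINC01021, now PURPL, a p53-induced RNA known to restrain p53 levels (chr5:27217821-27497978), was at 13.5 FPKM in the control and 35.5 in TET1, a ratio of 2.63. It was the only one of these 5 above 10 FPKM in both HeyC2 libraries, and it was listed at 0 in both SKOV3 libraries. At the other end, LINC00673 was at 3.63 and 0.420 FPKM, LINC01138 at 3.30 and 0.439, LINC01629 at 3.86 and 0.720, and LINC00942 at 7.17 and 2.56. LINC01461 was at 1.36 FPKM in the control and listed at 0 in TET1. LINC00673, LINC01138 and LINC01461 were not found in the annotation used, so their positions and fragment numbers are not given.

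In SKOV3 the largest values above control came from transcripts that were at or near 0 in the control. LINC01127 (chr2:102578514-102603629) was at 0.17 FPKM in the control and 6.19 in TET1, about 4 and 147 fragments, and listed at 0 in both HeyC2 libraries. LINC01594 (chr2:108783581-108834342) was listed at 0 in the other 3 libraries and was at 5.12 FPKM in SKOV3 TET1, about 38 fragments. LINC01508 was likewise at 3.01 FPKM in SKOV3 TET1 alone, about 19 fragments, and LINC00313 was at 2.94 with 0 in the control. In all, 10 members were listed at 0 in the SKOV3 control and reached 1 FPKM in TET1, and 3 (LINC00240, LINC01133 and LINC01338) went the other way. These are 6.06% and 1.82% of the members, beside 0.938% and 0.514% of all genes tested, which are less scarce. In HeyC2 the numbers were 2 (LINC00106 and LINC00884) and 1 (LINC01461), or 1.21% and 0.606% beside 0.466% and 0.243%. LINC00950, at 0.06 and 3.70 FPKM, has since been merged into the coding gene TMEM8B.

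The largest values below control in SKOV3 belonged mostly to transcripts well expressed in the control. LINC00458, a transcript described in pluripotent stem cells (chr13:54524390-54844532), was at 28.7 FPKM in the SKOV3 control and 1.23 in TET1, a ratio of 0.043, or about 277 and 11 fragments. In HeyC2 it was listed at 0 in the control and was at 0.689 in TET1, about 6 fragments. LINC01057, now SLC44A3-AS1 (chr1:95079370-95320982), was at 93.7 FPKM in the SKOV3 control, second only to NORAD there, and at 12.3 in TET1. In HeyC2 it was at 3.13 in the control and 12.8 in TET1, so that the TET1 libraries of the 2 cell lines were nearly equal and the controls were the lowest and the highest of the 4. LINC00371, now annotated as the coding gene C13orf42, was at 7.73 and 0.542 FPKM in SKOV3, about 161 and 11 fragments, and at 0.14 and 0.309 in HeyC2. LINC00431 was at 5.48 and 0.55, a transcript so short that its FPKM rests on few bases, and all its 159 bases are shared with the coding gene TUBGCP3 at 99.4% identity. LINC01338 was at 1.22 and 0.

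Few members differed from control the same way in both cell lines, as was so for all genes tested. Higher in both were 8 (4.85%, against 3.48% of all genes tested): LINC00106, LINC00824, LINC00894, LINC01000, LINC01111, LINC01139, LINC01186 and LINC01481. LINC01139 was at 8.02 and 15.8 FPKM in HeyC2 and 6.11 and 11.7 in SKOV3. LINC01000, which was not found in the annotation, was at 5.97 and 9.92 and at 2.99 and 6.39. LINC01481, now PRANCR, which is known from epidermal progenitor cells, was at 2.25 and 5.32 FPKM in HeyC2 and 2.57 and 7.85 in SKOV3. LINC01111 was at 0.46 and 2.11 and at 2.97 and 6.44, the lowest value in the HeyC2 control. The other 4 stayed below 4 FPKM in every library, and LINC00106 rests on about 2 fragments in each TET1 library. In HeyC2 and SKOV3 TET1, LINC00824 rests on about 4 and 3 fragments and LINC01186 on about 11 and 5. LINC00894 shares 57.6% of its bases with other loci. LINC01481 starts 403 bases from CNOT2 on the other strand and LINC00894 starts 87 bases from EOLA2 (CXorf40B in the tables), with overlapping exons in both cases.

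Lower in both were 2 members (1.21%, against 2.06% of all genes tested). LINC00942, on the short arm of chromosome 12, was at 7.17 and 2.56 FPKM in HeyC2 and 0.95 and 0.067 in SKOV3. LINC00346, now PRECSIT, a p53-regulated RNA (chr13:111516334-111522677), was at 3.22 and 1.56 in HeyC2 and 1.69 and 0.513 in SKOV3. The control was the higher library in each line for both transcripts, but in HeyC2 both turn the other way with the deposited, GAPDH-scaled values, not centred. A further 12 members (7.27%, against 3.16% of all genes tested) differed in opposite directions in the lines, 6 each way. A total of 55 (33.3%) were past the limit in SKOV3 alone, 28 (17%) in HeyC2 alone and 60 (36.4%) in neither, beside 29.6%, 11.6% and 50.1% of all genes tested.

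**Figure D4:**
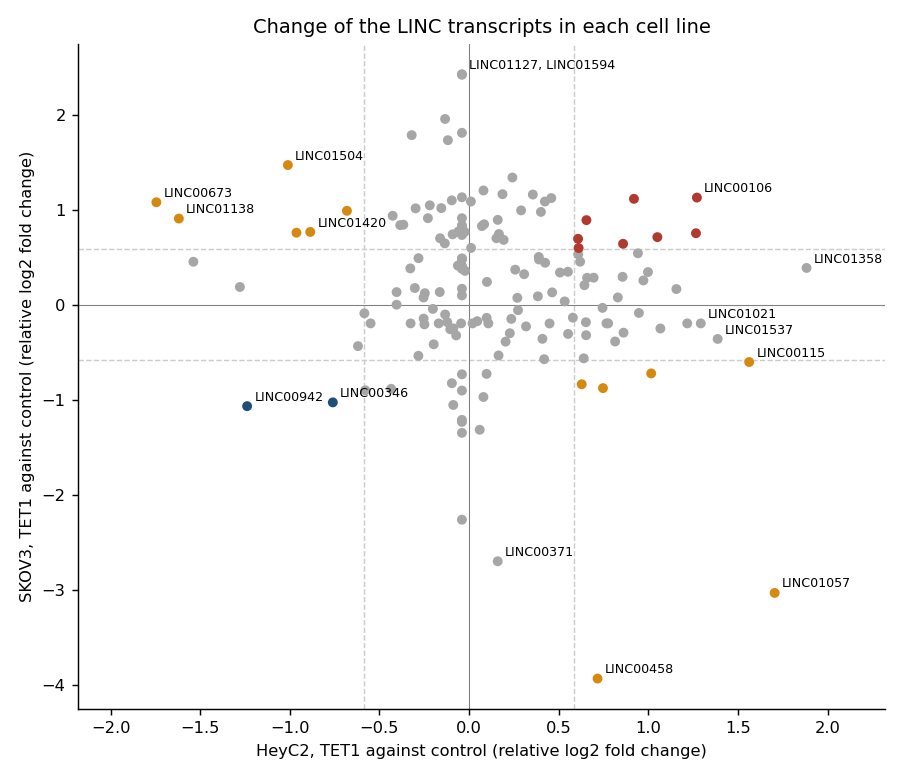
Relative log2 fold change of TET1 against control in HeyC2 (x axis) and SKOV3 (y axis) for the 165 LINC transcripts, dashed lines at 1.5-fold. Red points are the 8 higher in both, blue the 2 lower in both, orange the 12 in opposite directions, grey the rest, and a member at 0 in both libraries of a line is drawn close to 0, at minus the median of all genes.

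The cell lines differed from each other more often than TET1 differed from control. Between the controls, 58 members (35.2%) were at least 1.5-fold higher in HeyC2 and 41 (24.8%) higher in SKOV3, where 27.8% and 27.7% of all genes tested were. Without centring on the median gene the members split the other way, 44 higher in HeyC2 and 56 in SKOV3, beside 21.1% and 36.8% of all genes tested. At 5 FPKM or more the members gave 33.9% and 30.6%, beside 27.9% and 29.7% of all genes at that level, and between 1 and 5 FPKM 35.9% and 21.4%, beside 27.4% and 21.1%. Between the TET1 libraries the numbers were 50 and 54, with 27.4% and 28.6% over all genes (28.5% and 26.9% at 5 FPKM or more, 24% and 33.9% between 1 and 5). The same difference was counted in both conditions for 39 members higher in HeyC2, 67.2% of those in the controls and 78.0% of those in the TET1 libraries (67.8% and 68.6% over all genes tested). For members higher in SKOV3 it was 21, which is 51.2% and 38.9% (62.6% and 60.8% over all genes). Without centring, 38 members had both HeyC2 libraries above both SKOV3 libraries (21.8% of all genes tested did) and 62 had the reverse (46.1%).

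Some transcripts were expressed by 1 line alone. At 0 in both SKOV3 libraries were 10 members (6.06%, against 1.05% of all genes tested), and 4 of them were at 1 FPKM or more in both HeyC2 libraries: LINC00526, LINC00667, LINC01021 and LINC01583. LINC00667 (chr18:5237825-5290607) was at 8.11 and 9.09 FPKM in HeyC2, and LINC00526 at 1.66 and 1.43, with exons that overlap each other and, for LINC00667, the coding gene ZBTB14. At 0 in both HeyC2 libraries were 22 members (13.3%, against 4.44%), 7 of them at 1 FPKM or more in both SKOV3 libraries. Among genes whose highest value was between 1 and 5 FPKM the shares were closer, 7.77% of members and 3.45% of all genes at 0 in SKOV3, and 16.5% and 12.7% at 0 in HeyC2. The highest of these was LINC00624 (chr1:146730539-146989699), at 15.3 and 23.6 FPKM in SKOV3, which overlaps an exon of CHD1L. LINC00665 was close to them, at 0 and 0.281 FPKM in HeyC2 and 22.1 and 21.6 in SKOV3.

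Others were high in 1 line and low in the other. LINC00704, now MANCR, named for its association with mitosis (chr10:4623487-4720408), was at 34.4 and 33.3 FPKM in HeyC2 and 1.27 and 0.253 in SKOV3. LINC01615 (chr6:169557257-169563102) was at 24.3 and 23.7 in HeyC2 and 1.30 and 1.11 in SKOV3, and LINC01605 at 8.12 and 6.601 against 0.10 and 0.424. In each of these 3 the HeyC2 libraries lay close together and far above SKOV3. In the other direction, LINC01224 was at 0 and 0.071 in HeyC2 and 7.85 and 3.08 in SKOV3. A line difference that turned between control and TET1 was found for 5 members: LINC00115, LINC00239, LINC00313, LINC01138 and LINC01504 (3.03%, beside 1.74% of all genes tested).

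**Figure D5:**
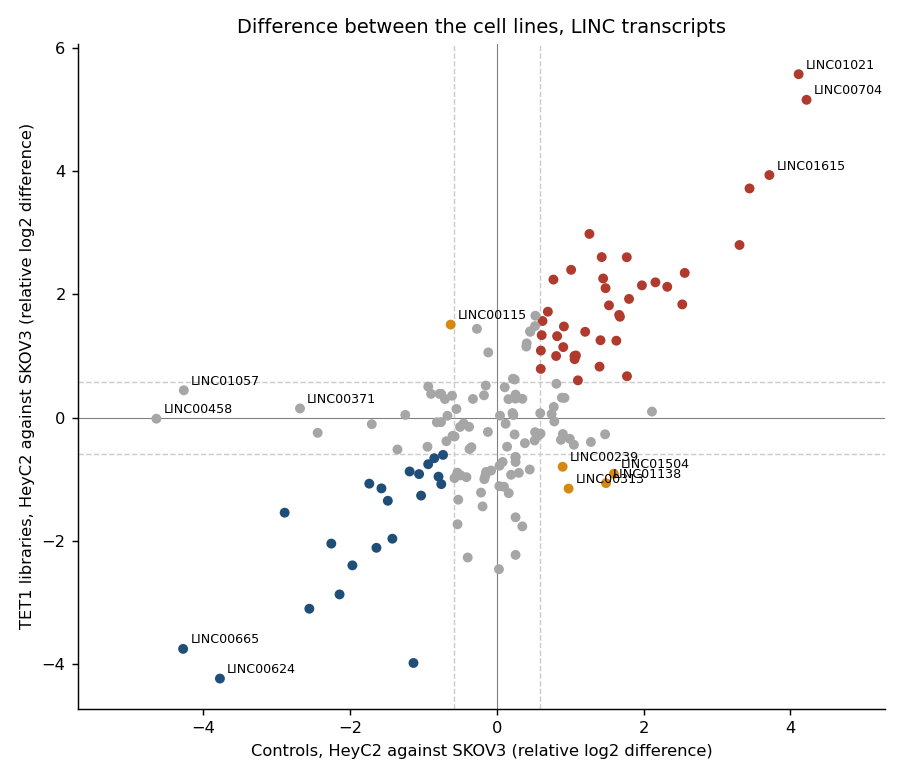
Relative log2 difference HeyC2 against SKOV3 between the controls (x axis) and between the TET1 libraries (y axis) for the 165 LINC transcripts, dashed lines at 1.5-fold. Red and blue points are the 39 and 21 members with the same difference in both conditions and orange the 5 that turned, while LINC00458 and LINC01057 lie far below 0 between the controls and within 1.5-fold between the TET1 libraries.

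In RefSeq, 32 of the 165 members have another symbol now, and 11 are protein-coding, most of them for a microprotein. LINC01420, now NBDY, whose microprotein binds the mRNA decapping complex, was at 46.0 and 25.1 FPKM in HeyC2 and at 22.1 and 43.9 in SKOV3. The levels of the 2 lines were thus mirrored, with relative log2 values of -0.89 in HeyC2, which turns to 0.81 with the deposited GAPDH-scaled values, not centred, and 0.77 in SKOV3. LINC00493, now SMIM26, a mitochondrial microprotein, was at 23.6, 32.2, 31.0 and 49.9 FPKM, within 1.5-fold of the median gene in both lines. LINC00998, now SMIM30, a small membrane protein, was at 33.5, 38.4, 14.6 and 28.0 FPKM and was past 1.5-fold in SKOV3 only, with a relative log2 value of 0.70. LINC00116, now MTLN, a microprotein of the inner mitochondrial membrane that supports respiration, was at 1.86 and 1.22 FPKM in HeyC2 and 12.4 and 14.3 in SKOV3, with at most about 26 fragments. The LINC00116 value in HeyC2 was -0.40 on the relative log2 scale, within 1.5-fold, but -0.62 and -0.66, past it, with pseudocounts of 0.1 and 0.01 FPKM. LINC00094, now BRD3OS, was at 8.92, 11.2, 14.3 and 21.7 FPKM, with exons that overlap BRD3. LINC00961, now SPAAR, whose microprotein acts on mTORC1 at the lysosome, was listed at 0 in HeyC2 and was at 2.05 and 0.87 in SKOV3. LINC00176 (C20orf204) and LINC00672 (LASP1NB) were below 0.5 FPKM in 3 libraries and at 1.74 and 2.898 in SKOV3 TET1. LINC01279, merged into CCDC80, was at 0.76, 2.03, 0.59 and 0.780 FPKM. LINC00467, which is still listed as noncoding although a microprotein has been described from it, was at 2.72 and 3.52 FPKM in HeyC2 and 2.88 and 10.2 in SKOV3, with about 229 fragments in the last.

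Another 4 members much described in carcinoma cells were below 4 FPKM in SKOV3. LINC01116 was at 14.7 and 13.8 FPKM in HeyC2 and 3.18 and 3.22 in SKOV3. LINC00460 was at 0.36 and 0.20 and at 0.19 and 1.81, LINC00511 at 0 and 0 and at 0.13 and 1.15, and LINC01133 at 0 and 0 and at 1.02 and 0. Those 3 were scarce in every library, with at most about 24 fragments.

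By position, 156 of the 165 members were found in the annotation, with a median transcript length of 1640.5 bases. The exons of 80 members overlap another gene, and those of 26 overlap a coding gene. The kit is not stated to keep strand, so that reads from overlapping genes cannot be told apart. A near-identical stretch elsewhere was found for 27 members, and 15 share at least 50% of their bases. A start within 2 kb of a coding gene on the other strand was found for 16 members. The nearest coding gene was then compared, where it passed the limit of 1 FPKM. In HeyC2 it was called higher for 4 of 25 members higher in TET1 (16.0%, beside 12.5% of all genes tested), and in SKOV3 for 9 of 40 (22.5%, beside 20.6%). For members lower in TET1 it was called lower for 2 of 7 in HeyC2 (28.6%, beside 7.81%) and 4 of 15 in SKOV3 (26.7%, beside 17.7%). With starts within 2 kb on the other strand, the neighbour was called the same way for 0 of 4 members higher in HeyC2. In SKOV3 it was for 0 of 6 higher and 1 of 2 lower. The numbers of pairs are small.

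Some neighbouring pairs are given as examples, chosen after their values were seen. LINC01127 starts 29908 bases from IL1R2, the decoy receptor of interleukin 1, which was at 0 in HeyC2 and at 0.82 and 17.2 FPKM in SKOV3. LINC01127 and IL1R2 were thus both near 0 except in SKOV3 TET1. LINC01158, now PANTR1, starts 104 bases from POU3F3, a neural transcription factor, and was listed at 0 except in SKOV3 TET1, where it was at 1.03 and POU3F3 at 0.803 FPKM. LINC01158 rests on about 4 fragments there, and POU3F3 was below the limit of 1 FPKM. LINC01547 starts 84 bases from FAM207A and was at 9.07 and 5.28 FPKM in SKOV3, while FAM207A was at 115 and 38.4. In HeyC2 LINC01547 and FAM207A went apart, with relative log2 values of 0.75 and -0.35. LINC01057 and SLC44A3 went apart in SKOV3, where SLC44A3 was at 5.51 and 13.6 FPKM.

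The 5 members of the short arm of chromosome 12 were LINC00937, LINC00941, LINC00942, LINC00987 and LINC01252. The 178 genes tested there had a median relative log2 value of -0.67 in HeyC2 and -0.02 in SKOV3. LINC00942 was below that median in HeyC2 at -1.24, LINC00987 was at -0.43 and LINC00941 at -0.28. LINC01252 went the other way at 0.65, with about 6 fragments in HeyC2 TET1, and LINC00937 was listed at 0 in both HeyC2 libraries. On chromosome 13, picked out after the values were seen, 5 of 7 members were lower in SKOV3 TET1 (LINC00346, LINC00371, LINC00428, LINC00431 and LINC00458) and the other 2, LINC00460 and LINC01232, were higher, where the median of the 244 genes tested was -0.26, with 27.9% of them lower and 12.7% higher. LINC00428 and LINC00431, both under 300 bases, have no fragment estimate. On chromosome 7, likewise picked out after the values were seen, all 6 members were higher in SKOV3 TET1. Their median was 0.80 beside 0.16 for the 659 genes tested, of which 24.6% were higher.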

How the data were processed

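Each library was made with a TruSeq RNA kit from total RNA and sequenced in paired reads of 150 bp. According to the submitters' processing notes, Bowtie2 2.2.6 and RSEM 1.2.17 were used, and the authors aligned to hg19. The annotation and any filter are not given in the sources used here. The authors deposited FPKM in a table for each cell line and had multiplied each TET1 library by a constant that set GAPDH to its control value. The constant (3.23 in HeyC2, 1.35 in SKOV3) was recovered from the value steps, with 100% of 1220 and 2637 distinct values on the grid, and was divided out. Recovery of such constants, and of planted changes, was tested on simulated data.

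Values were compared as log2(FPKM + 1) minus the median over the 14387 genes tested, which understates differences of scarce transcripts, and counted from 1.5-fold. With 1 library per group no test was made. No read totals were used. Depth was inferred from the steps between low FPKM values, and fragment numbers are approximate, cover counting error only, and use GENCODE transcript lengths. Positions came from GENCODE v44 on GRCh37, which is hg19, and current names and promoters from RefSeq on GRCh38.p14. Shared sequence was searched with BLAST+ 2.17.0 (97% identity over 150 bases). Python 3.11.15, numpy 2.4.6, pandas 2.3.3 and matplotlib 3.10.9 were used.

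The members and lists were chosen with earlier results of these data known. Named were TET1 and GAPDH, the 8 members with the highest mean FPKM, the 5 largest differences each way per cell line and between the controls, members with the same or opposite direction in both lines, members with a described microprotein or a second name, and those on 12p. Others are examples chosen after their values were seen. GAPDH was at 5417 and 1675 FPKM in HeyC2 control and TET1 and at 2248 and 1671 in SKOV3 before the scaling. Alternatives were other pseudocounts, thresholds, scalings and filters, and leaving out members of overlapping or shared sequence.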

Additional observations from a re-analysis of the deposited data

Results flagged for a closer look

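The 12 members with opposite directions in the cell lines stood out, since their value in the TET1 library was above control in 1 line and below it in the other. The difference between the lines was not tested, because each group has 1 library. The relative log2 fold change was higher in HeyC2 than in SKOV3 by 4.73 for LINC01057 (1.70 and -3.03), by 4.65 for LINC00458 (0.72 and -3.93), by 2.16 for LINC00115 (1.56 and -0.60), by 1.74 for LINC00884 (1.02 and -0.72), by 1.62 for LINC01547 (0.75 and -0.88) and by 1.46 for LINC01503 (0.63 and -0.83). The difference, HeyC2 minus SKOV3, was -2.82 for LINC00673, -2.53 for LINC01138, -2.48 for LINC01504, -1.72 for LINC00324, -1.67 for LINC00239 and -1.65 for LINC01420. By depth the members of this set are unequal. LINC01420 had at least about 344 fragments in every library and LINC01547 at least about 37. LINC00239 had at most about 4 fragments, LINC01503 at most about 14 and LINC01504 at most about 17. LINC00884 overlaps an exon of ATP13A3 and LINC01504 an exon of ZFAND5.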

How the results depend on the processing

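No paired analysis was possible because each group has 1 library and no replicate number pairs the groups. Counts of members higher and lower were 39 and 11 in HeyC2, 55 and 22 in SKOV3, and 58 and 41 between the controls. With the FPKM as deposited, not centred, HeyC2 gave 122 higher and 4 lower. The median was 1.30 on the log2 scale, beside 1.54 over all genes tested. On that scale LINC00346, LINC00942 and LINC01420 turned to 0.52, 0.18 and 0.81. SKOV3 gave 92 and 12 with a median of 0.72, beside 0.56 over all genes tested. With TPM, not centred, 85 of 165 were higher in SKOV3, beside 33.8% of all genes tested. The median was then 0.61, beside 0.26. Before the GAPDH scaling and without centring the SKOV3 median was 0.44, beside 0.19 over all genes tested. The median between the controls, 0.22, turned to -0.035 without centring (as deposited and before scaling) and to -0.066 with TPM, not centred. Over all genes tested these medians were -0.25 and -0.32. The median of members was 0.055 at a mean of 1 FPKM, 0.11 at 5 FPKM and 0 without a filter. A pseudocount of 0.1 or 0.01 gave 59 and 59 higher in HeyC2 (18.2% and 19.4% of all genes tested) and 24 and 26 lower (12.2% and 12.9%). The SKOV3 medians were 0.45 and 0.46, and 0.01 gave 62 lower between the controls (32.5% of all genes tested). At 2-fold the counts were 12 and 6, 22 and 11, and 35 and 23. All genes tested gave 3.99% and 2.50%, 9.68% and 6.50%, and 17.5% and 16.5%. Other filters change the number of members. At 5 FPKM the counts among 62 were 13 and 3, 23 and 10, and 22 and 19. All genes at that filter gave 12.01% and 8.04%, 20.26% and 17.21%, and 28.95% and 28.43%. The SKOV3 median of members was then 0.44. At 2 FPKM that median was 0.37. At a mean of 1 FPKM, 24 of 94 were higher in HeyC2, beside 12.5% of all genes. In SKOV3, 14 of 114 were lower, beside 18.2%, with a median of 0.38. Between the controls 32 of 95 were higher, beside 29.0%. Without a filter, 85 of 903 were higher in SKOV3 with a median of 0, beside 16.7% of all genes. Between the controls 69 were lower, beside 20.6% of all genes. Without members of overlapping exons the counts among 76 were 18 and 5, 30 and 11, and 28 and 17, with a SKOV3 median of 0.089. The shares of all genes are there those of the main counts. Without members of shared sequence, chosen after seeing the data, the SKOV3 median was 0.13. Leaving out replicates does not apply. Of 186 named values, 87 moved by over 1.5-fold with a pseudocount of 0.01, 79 with 0.1, 58 with the deposited FPKM and 34 with TPM. The filters only change which genes set the median. Values before the GAPDH scaling, not centred, differ from the main ones by 1 constant per comparison (0.04, 0.19 and -0.25). Named values stayed within 1.5-fold there, which is therefore no check on them. Depth limits members near 1 FPKM, with about 10 fragments.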
